A study of Mus musculus with 12 samples.

Results

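The 10 genes described here encode the FOS and JUN subunits of the transcription factor AP-1 (Fos, Fosb, Fosl1, Fosl2, Jun, Junb and Jund), the transcription factors Egr1 and Nr4a1, and the survival protein Ier3. They were taken by symbol from a count table of 41128 genes, in a choice made with earlier results of these data known, and all 10 passed the filter on low counts in every comparison. Polyadenylated RNA of 12 mouse libraries in 5 groups was sequenced, from hepatocytes and from livers. In the hepatocytes, 3 untreated libraries were compared with 3 peritumoral libraries, taken beside tumours. The name livers is taken from the study's design text. In the livers, 2 control libraries were compared with 2 libraries 24 h and 2 libraries 48 h after thioacetamide (TAA). TAA is a hepatotoxin whose metabolites injure hepatocytes.

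All 6 hepatocyte libraries carry the alleles Lats1tm1.1Jfm/RjoJ and Lats2tm1.1Jfm/RjoJ, which are floxed alleles of the Hippo pathway kinases, and are titled WT. The sources used here do not say whether Cre was present. Tumours were raised by hydrodynamic injection, at an age of 8 weeks, of 1 µg of the SB11 transposase plasmid, 20 µg of myc-NICD (activated Notch) and 4 µg of myr-HA-Akt (activated Akt), and grew for 8 weeks. The 6 liver libraries are from CD-1 IGS mice, and TAA was given once into the peritoneum. The labels give an age of 8 weeks for all groups, the peritumoral one included. They also give dissociation and Percoll selection of hepatocytes for all 12 libraries, while in the study's design text the libraries of the TAA experiment are livers. No library without that label exists in this set, so the level that a gene had in the tissue and the level it reached during dissociation cannot be told apart. No source ties the libraries of a group to separate animals, and the p-values then measure only the spread between these libraries, which may be technical.

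AP-1 is a dimer of basic leucine zipper proteins that binds a short palindromic DNA element. JUN proteins pair with each other or with FOS proteins, whereas FOS proteins need a JUN partner, and FRA1 (the product of Fosl1) and FRA2 (Fosl2) lack the strong activation domain of FOS and FOSB. Together with Egr1 and Nr4a1, Fos and Jun are textbook immediate early genes: their transcripts appear within minutes of a stimulus, without new protein synthesis, and decay fast. In liver this set is known to be induced by partial hepatectomy, by injury and by enzymatic isolation of hepatocytes.

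Total counts ran from 16228747 to 18522324 in the hepatocyte libraries and from 9640845 to 13692235 in the livers. Levels below are CPM, each count as a rate of its library's total, scaled by trimmed mean of M-values (TMM) factors over all 12 libraries, and CPM per kb of exon where genes are compared. The hepatocyte markers Alb and Ttr were high in every library, and the summed level of 9 hepatocyte markers was 93708 to 115751 CPM in untreated hepatocytes, 59091 to 145325 in peritumoral hepatocytes, 240938 to 247606 in control livers, 127777 to 147427 at 24 h and 104615 to 111843 at 48 h. Summed macrophage markers were lower in control livers (136 to 223 CPM) than in untreated hepatocytes (451 to 565 CPM), as were neutrophil and red blood cell sums. Biliary sums were higher in control livers, and endothelial, stellate and lymphocyte sums overlapped. Which preparation the livers had was not tested. Scaling mattered in the livers: with library totals alone, the median log2 fold change of all genes moved from 0.02 to 0.53 at 24 h and from −0.03 to 0.68 at 48 h, and in hepatocytes from −0.02 to 0.23.

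Fos and Jun transcripts were abundant in all 12 libraries. Per kb of exon, Fos ranked between place 49 and place 310 of 40254 genes in every library, and Jun between place 76 and place 400. Egr1 ranked between 121 and 811, Junb between 125 and 807, and Jund between 187 and 744. Even in untreated hepatocytes Fos reached 262, 237 and 158 CPM per kb. Fosb followed at 14.6 to 133 CPM per kb over the 12 libraries and Nr4a1 at 7.25 to 70.9. The least abundant were Fosl2, at 0.640 to 10.4 CPM per kb, and Fosl1, at 0 to 5.55.

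**Figure D1:**
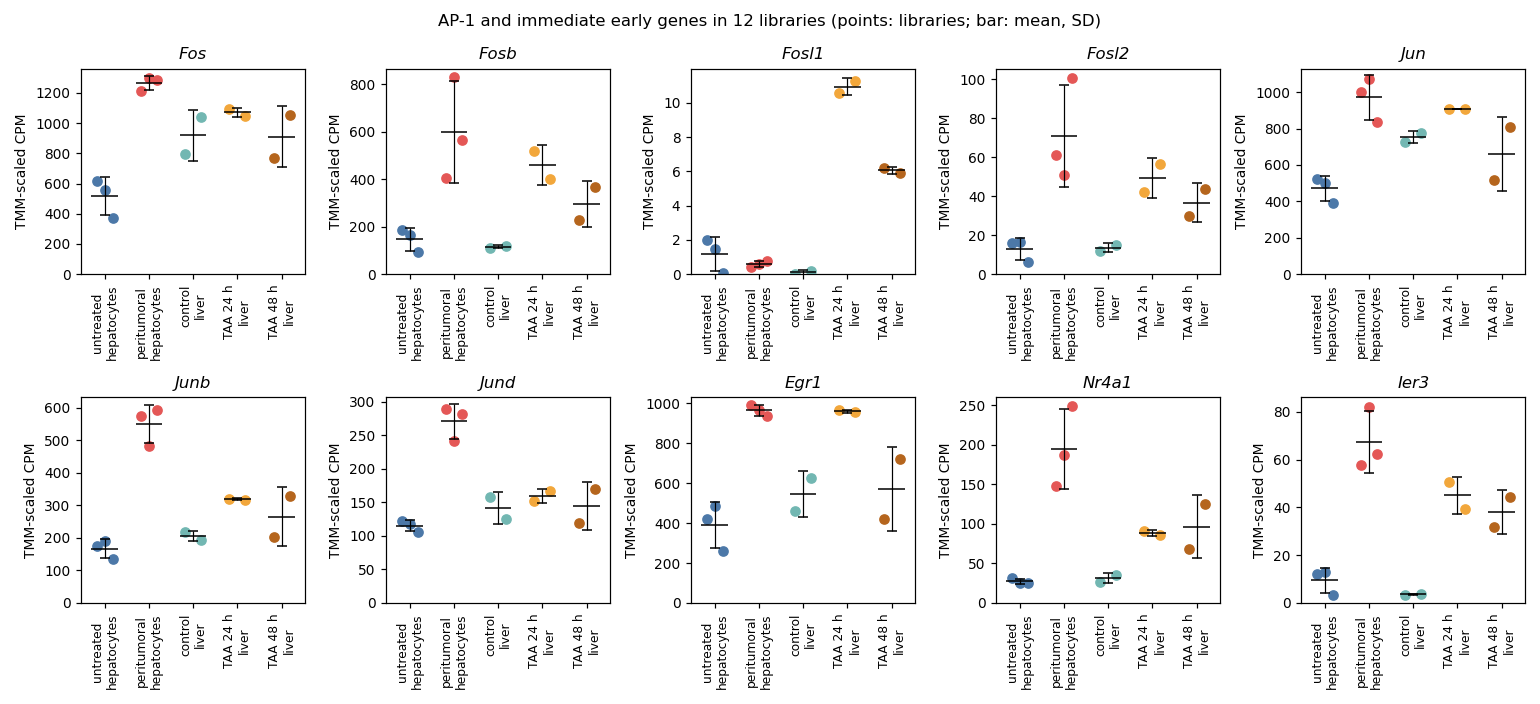
Level of each of the 10 genes (y axis, TMM-scaled CPM from 0) in the 5 groups; each point is 1 library, the long bar is the mean and the error bar the SD (n = 3 for hepatocytes, n = 2 for livers). The peritumoral libraries are the highest group mean for 9 of 10 genes, and Fosl1 is highest at 24 h after TAA, at 10.6 and 11.3 CPM.

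The sequences before the start of 4 of these genes are shown because the genes rose together beside tumours while Fos and Jun separated from Fosb and Nr4a1 after TAA. RefSeq promoters on GRCm38.p6 were matched for 8 of 10 genes. Each run below holds the 250 bases before the annotated start, 5′ to 3′ on the gene's strand, and capitals mark matches to the motifs described after them. The runs are from chr12:85473640-85473889 (plus strand), chr4:95052223-95052472 (minus strand, inside the gene Junos on the opposite strand), chr7:19310046-19310295 (minus strand) and chr15:101266596-101266845 (plus strand, inside an intron of the longer Nr4a1 gene model).
Fos: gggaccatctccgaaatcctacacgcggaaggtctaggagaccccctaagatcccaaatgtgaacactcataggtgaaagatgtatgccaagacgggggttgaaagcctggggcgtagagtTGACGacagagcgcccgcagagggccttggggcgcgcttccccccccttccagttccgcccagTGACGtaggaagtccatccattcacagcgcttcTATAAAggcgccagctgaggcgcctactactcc
Jun: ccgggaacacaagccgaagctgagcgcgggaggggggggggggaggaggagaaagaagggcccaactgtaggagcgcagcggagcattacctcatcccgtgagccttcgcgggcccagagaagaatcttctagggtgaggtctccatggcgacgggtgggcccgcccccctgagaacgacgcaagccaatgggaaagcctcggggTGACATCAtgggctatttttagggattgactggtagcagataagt
Fosb: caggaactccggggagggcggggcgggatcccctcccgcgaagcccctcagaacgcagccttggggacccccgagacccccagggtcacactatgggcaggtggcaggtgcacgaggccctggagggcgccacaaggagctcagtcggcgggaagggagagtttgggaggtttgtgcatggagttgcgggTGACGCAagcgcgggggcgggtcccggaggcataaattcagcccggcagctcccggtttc
Nr4a1: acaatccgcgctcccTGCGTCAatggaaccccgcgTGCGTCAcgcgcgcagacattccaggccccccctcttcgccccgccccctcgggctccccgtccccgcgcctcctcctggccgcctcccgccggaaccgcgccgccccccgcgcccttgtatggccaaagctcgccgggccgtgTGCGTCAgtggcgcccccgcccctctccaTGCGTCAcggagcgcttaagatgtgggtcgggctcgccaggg

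Both strands of these windows were searched. The AP-1 site TGANTCA was in 6.73% of 32536 mouse promoters of this length and in 0 of the 8 promoters. The variant TGACNTCA, in 7.43% of promoters, was in that of Jun alone among the 8, beginning 45 bases before the start. The cyclic AMP response half-site TGACG, in 17.9% of promoters, was in 4 of the 8: Fos and Nr4a1 with 2 and 4 matches, and Fosb and Junb with 1 each. In Fosb and in all 4 places of Nr4a1 it was part of TGCGTCA or its reverse complement, a motif chosen after the sequences had been read and present in 1.76% of promoters. The TATA element TATAAA, in 12.3% of promoters, was in that of Fos alone, 33 bases before the start, and the CArG box, in 1.48%, was in none of the 8. These matches are letters in a window and say nothing of which factor was bound or of sites further upstream. Egr1 and Fosl1 had no promoter entry and were not searched.

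Hepatocytes next to tumours held more of nearly every one of these transcripts than untreated hepatocytes did. By the quasi-likelihood test of edgeR, adjusted after Benjamini and Hochberg over all genes, 9 of 10 rose and 0 fell, where 28.5% of all 13442 genes tested passed, 18.7% upwards and 9.85% downwards. The exception was Fosl1. The same 9 had no overlap between the groups, against 25.8% of all genes that lay wholly higher. Their increases were between 2.06-fold (Jun) and 7.17-fold (Ier3), and the median log2 fold change over the 10 was 1.51, beside −0.02 for all genes. Untreated replicate 3 stood apart from replicates 1 and 2 (chi-square per degree of freedom over gene counts of 137 and 133, against 16.9 between those, and 94.2 to 232 among peritumoral libraries) and was the lowest untreated library for all 10 genes. Without it 8 of the 10 rose, with Jun lost. Without untreated replicate 1 or 2 the number that rose was 5, and without peritumoral replicate 3 it was 6. Fosl2, Junb, Jund, Nr4a1 and Ier3 passed in every alternative run, each left-out library included.

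Transcripts of other liver cells moved with this comparison. Summed macrophage markers were 451 to 565 CPM in untreated and 1698 to 4769 CPM in peritumoral libraries, with 8 of 11 tested markers higher. Of the first 2 on that list, Cd68 overlapped, at 70.7, 73.2 and 35.7 CPM untreated and 32.9, 52.0 and 68.0 CPM peritumoral. Csf1r was at 35.6, 28.7 and 27.9 CPM untreated and 156, 219 and 537 CPM peritumoral. Endothelial markers were 215 to 309 and 889 to 1683 CPM, with 9 of 10 higher. Stellate and matrix markers were 57.4 to 115 and 737 to 1780 CPM, with 8 of 10 higher. Biliary markers were 53.0 to 85.7 and 797 to 7518 CPM, with 8 of 10 higher and peritumoral replicate 2 the highest. Much of the peritumoral sum was Spp1, which is also on the list of AP-1 targets. Spp1 was at 22.6 ± 8.73 CPM in untreated and 2828 ± 3473 CPM in peritumoral libraries (mean ± SD). Krt19 was at 1.02, 0.452 and 0.499 CPM in untreated and 18.7, 58.7 and 12.2 CPM in peritumoral libraries. Without peritumoral replicate 2, 9 of the 10 genes rose. Replicates 1 and 3, at 1093 and 797 CPM of biliary markers, were also above the untreated libraries. Leaving out replicate 2 therefore does not test the part of biliary transcripts in the values. Neutrophil markers were 4.13 to 6.66 and 21.1 to 47.9 CPM, with 8 of 8 tested higher. In bulk RNA, more cells of a type and more RNA per cell cannot be told apart. Nor can transcripts of tumour cells, if any were taken along, be told apart from those of other cells. The part of all these cells in the values of the 10 genes was not tested.

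After TAA the set split. Fosb, Fosl1, Fosl2, Nr4a1 and Ier3 rose at 24 h and at 48 h, and 0 of the 10 fell at either time, where 41.7% of 13497 genes passed at 24 h (21.1% upwards, 20.7% downwards) and 49% at 48 h (25.1% upwards, 24% downwards). Fos, Jun, Junb, Jund and Egr1 did not pass at either time, except with library totals alone and, for Junb, Jund and Egr1, in further alternatives such as limma on RPM, which is scaled to library totals too. Egr1 at 24 h also passed in runs that are not scaled to library totals, among them DESeq2, the fit without a filter on low counts and the replicate block. The comparisons at 24 h and 48 h share both control libraries and are not independent of each other. Groups lay wholly apart, with TAA higher, for 9 of 10 genes at 24 h and 5 of 10 at 48 h, where 43.9% and 40.9% of all genes did so and 30.4% lay wholly lower at 24 h. The median log2 fold change over the 10 was 1.04 at 24 h and 0.78 at 48 h, beside 0.02 and −0.03 for all genes.

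The split depended on scaling. With library totals alone all 10 rose at 24 h and all but Jun at 48 h, in a fit where the calls over all genes went from 2844 higher and 2790 lower to 6132 and 1222 at 24 h, and from 3382 and 3238 to 7645 and 975 at 48 h. Leaving out single libraries gave 4 to 7 genes higher at 24 h and 5 in every case at 48 h. Markers of other cells moved here too. Macrophage markers were 136 to 223 CPM in control livers, 624 to 764 at 24 h and 1117 to 1580 at 48 h, with 8 and 11 of 11 higher, and stellate and matrix markers were 112 to 180, 475 to 509 and 1315 to 1929 CPM, with 9 and 10 of 10 higher. Endothelial markers were 197 to 237, 391 to 511 and 445 to 527 CPM, with 7 and 8 of 10 higher. Biliary markers summed to 102 to 111, 173 to 189 and 206 to 299 CPM, but few of them passed. Of 9 tested, 4 were higher at 24 h, and 2 were higher and 1 lower at 48 h. Spp1 alone went from 34.7 ± 0.49 to 81.9 ± 1.98 and 167.5 ± 53.2 CPM (mean ± SD). The neutrophil markers S100a8 and S100a9 were at 0 in both control livers, where 8 and 9 of the 10 neutrophil markers had no count. Of 9 hepatocyte markers 6 were lower at each time. The part of these cells in the values was not tested.

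**Figure D2:**
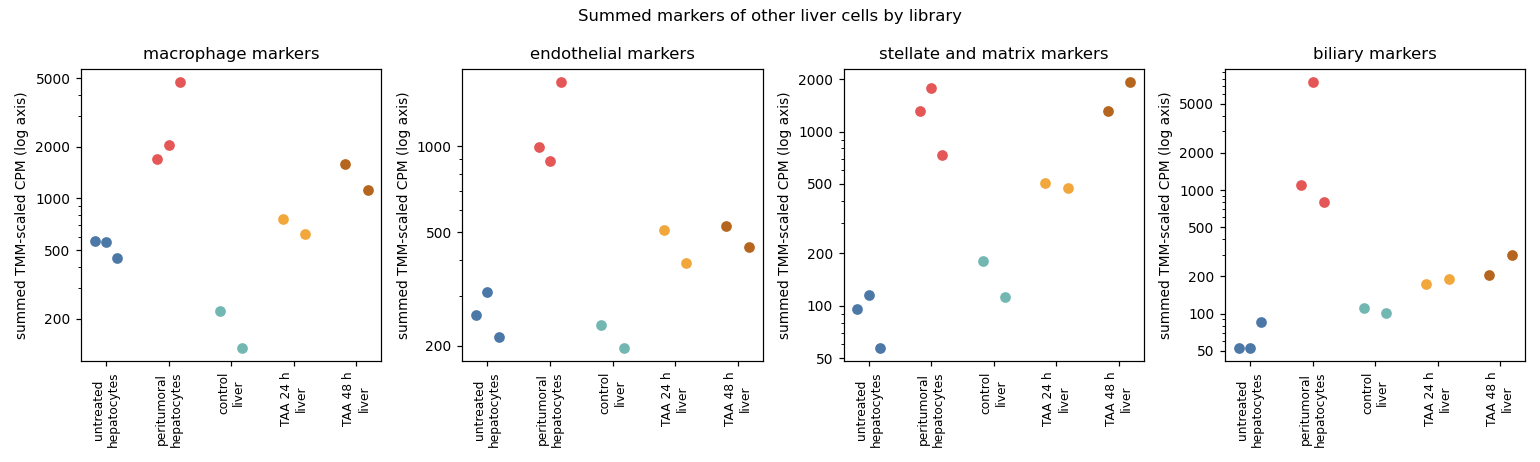
Summed level of the markers of 4 other liver cell types (y axis, TMM-scaled CPM, log axis) in each library, by group (points: libraries). Macrophage, endothelial, stellate and biliary sums are higher in all 3 peritumoral libraries than in the untreated ones and higher in all 4 TAA libraries than in the controls. Of 9 biliary markers tested after TAA, 4 were higher at 24 h, and 2 were higher and 1 lower at 48 h.

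Fos (ENSMUSG00000021250, chr12:85473890-85477273 on GRCm38, plus strand), the founding subunit, changed in the hepatocytes. It stood at 617, 557 and 373 CPM in untreated hepatocytes and at 1214, 1301 and 1288 CPM beside tumours. Control livers had 798 and 1039 CPM, 24 h livers 1094 and 1050.0 CPM, and 48 h livers 767 and 1052 CPM. The peritumoral libraries were all above every other library, and the liver groups lay close together. The log2 fold change was 1.30 ± 0.28 (SE, adjusted p = 0.0186) in hepatocytes, which no longer passed once untreated replicate 1, untreated replicate 2 or peritumoral replicate 3 was left out. It was 0.11 ± 0.21 (adjusted p = 0.713) at 24 h, with a 95% interval of −0.39 to 0.61, and −0.09 ± 0.21 (adjusted p = 0.738) at 48 h, with an interval of −0.59 to 0.41. The hepatocyte estimate of 1.30 lies outside both intervals under this scaling, but it has a wide 95% interval of its own, 0.63 to 1.97. Tested directly in edgeR, the hepatocyte change minus the 24 h change was 1.07 ± 0.38 and did not pass (adjusted p = 0.07). Against 48 h the difference was 1.31 ± 0.38 (adjusted p = 0.0466). With library totals alone the liver values were 0.62 and 0.61, and both passed.

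Fosb (ENSMUSG00000003545, chr7:19302696-19310051, minus strand), which carries an activation domain like that of Fos, rose in all 3 comparisons. It was at 184, 166 and 91.4 CPM in untreated and 404, 828 and 563 CPM in peritumoral hepatocytes. In livers it went from 112 and 120.0 CPM in controls to 518 and 400.0 CPM at 24 h and 227 and 365 CPM at 48 h. No treated library overlapped its controls. The log2 fold changes were 2.04 ± 0.39 (adjusted p = 0.0126), 1.87 ± 0.26 (adjusted p = 0.00218) and 1.28 ± 0.25 (adjusted p = 0.0062), and the first was lost without untreated replicate 1 or 2.

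Fosl1 (ENSMUSG00000024912, chr19:5447547-5455946, plus strand), which encodes FRA1, was the rarest of the set and the one with the largest change after TAA. Raw counts were 0 and 2 in the control livers, 133 and 151 at 24 h and 71 and 84 at 48 h. Scaled, these were 0 and 0.200, 10.6 and 11.3, and 6.19 and 5.91 CPM. The controls sit at or under the floor of 3 counts per library, and the TAA libraries are far above it. Over pooled counts the 24 h livers were 108-fold higher (95% interval 29.5 to 893) and the 48 h livers 59.4-fold higher (16.2 to 495), intervals that cover counting error only. The fitted log2 fold changes were 6.50 ± 0.54 (adjusted p = 0.000555) and 5.68 ± 0.57 (adjusted p = 0.000498), and over the alternatives that differ in scaling, filter, pseudocount or tool the 24 h value ranged from 4.31 (limma with a pseudocount of 0.5) to 6.97 (library totals alone). Without control replicate 2, the library with 2 counts, it was 10.05.

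In hepatocytes Fosl1 went no clear way. Raw counts were 35, 26 and 1 in the untreated libraries, 1.98, 1.47 and 0.0713 CPM, and 7, 16 and 13 beside tumours, 0.410, 0.617 and 0.734 CPM. Untreated replicate 3 was below all peritumoral libraries and the other two untreated libraries were above them. The log2 fold change was −0.98 ± 0.86 (adjusted p = 0.429), with a 95% interval from −3.04 to 1.07. Of the exon length of Fosl1, 57.2% is shared with Ccdc85b on the opposite strand, and the sources used here do not say whether strand was used in counting. Ccdc85b stayed at 2.84 to 4.45 CPM at 24 h and 2.99 to 4.25 CPM in controls, with a log2 fold change of −0.11 (adjusted p = 0.822), and rose by 1.12 on the log2 scale (adjusted p = 0.0278) beside tumours.

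Fosl2 (ENSMUSG00000029135, chr5:32135801-32157842, plus strand), which encodes FRA2, rose in each comparison and kept its call in all alternatives. Untreated hepatocytes had 15.7, 16.5 and 6.20 CPM and peritumoral ones 61.2, 51.0 and 101 CPM. Control livers had 11.9 and 15.1 CPM, 24 h livers 41.8 and 56.5 CPM, and 48 h livers 29.6 and 43.7 CPM. The untreated and control groups overlapped, and all peritumoral and TAA libraries were above both. The log2 fold changes were 2.47 ± 0.41 (adjusted p = 0.00895), 1.75 ± 0.25 (adjusted p = 0.00248) and 1.36 ± 0.25 (adjusted p = 0.00444).

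The JUN subunits rose beside tumours and did not pass after TAA, except with library totals alone (Jun at 24 h only) and, in further alternatives, for Junb with limma on RPM at both times and without TAA 48 h replicate 2 at 24 h, and for Jund with limma on RPM at 48 h. Jun (ENSMUSG00000052684, chr4:95049034-95052222, minus strand), the strongest activator of the 3, was at 521, 503 and 392 CPM in untreated and 1004, 1075 and 834 CPM in peritumoral hepatocytes. Livers had 729 and 777 CPM in controls, 908 and 908 CPM at 24 h, and 519 and 807 CPM at 48 h. The 48 h libraries straddled the controls. The log2 fold change in hepatocytes was 1.04 ± 0.26 (adjusted p = 0.027), the least stable of the 9 calls: it was lost without untreated replicate 1, 2 or 3 and without peritumoral replicate 1 or 3. The liver values were 0.15 ± 0.22 (adjusted p = 0.6, 95% interval −0.37 to 0.67) and −0.26 ± 0.22 (adjusted p = 0.357, interval −0.78 to 0.26).

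Junb (ENSMUSG00000052837, chr8:84974484-84978718, minus strand), often described as a weaker activator that can restrain Jun, was at 176, 190.0 and 136 CPM in untreated and 574, 483 and 592 CPM in peritumoral hepatocytes. In livers it was at 217 and 194 CPM in controls, 321 and 317 CPM at 24 h, and 202 and 329.6 CPM at 48 h. The 24 h libraries were above the controls and the 48 h libraries overlapped them. Its log2 fold change was 1.71 ± 0.22 (adjusted p = 0.0054) in hepatocytes, 0.52 ± 0.23 (adjusted p = 0.117, 95% interval −0.04 to 1.07) at 24 h and 0.29 ± 0.23 (adjusted p = 0.337, interval −0.26 to 0.85) at 48 h.

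Jund (ENSMUSG00000071076, chr8:70698949-70700616, plus strand) is usually described as the constitutive subunit. It stood at 122, 118 and 106 CPM in untreated and 290.1, 241 and 282 CPM in peritumoral hepatocytes. Controls had 158 and 125 CPM, 24 h livers 152 and 166 CPM, and 48 h livers 119 and 170.2 CPM. All 3 liver groups overlapped. The log2 fold change was 1.22 ± 0.17 (adjusted p = 0.00587) in hepatocytes, 0.06 ± 0.21 (adjusted p = 0.847) at 24 h and −0.05 ± 0.21 (adjusted p = 0.867) at 48 h. Of its exon length 52.6% is shared with the antisense gene Gm11175, which had 0 to 11 raw counts in any library. Jun shares 7.28% with Junos (4 to 22 counts) and Junb 7.52% with Prdx2, which did not pass in any of the comparisons.

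Egr1 (ENSMUSG00000038418, chr18:34859823-34864984, plus strand), a zinc finger factor of the growth factor response, and Nr4a1, an orphan nuclear receptor, are not AP-1 subunits but share its fast induction. Egr1 was at 421, 486 and 261 CPM in untreated and 991, 967 and 935 CPM in peritumoral hepatocytes, with a log2 fold change of 1.31 ± 0.29 (adjusted p = 0.0195), lost without the same libraries as for Fos. In livers it was at 463 and 625 CPM in controls, 967 and 956 CPM at 24 h, and 421 and 719 CPM at 48 h. Both 24 h libraries were above every control and 48 h library. The 24 h log2 fold change was 0.70 ± 0.28 (adjusted p = 0.0792, 95% interval 0.05 to 1.36), close to the threshold: it passed in DESeq2 and in 7 other alternatives. At 48 h it was −0.01 ± 0.27 (adjusted p = 0.975).

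Nr4a1 (ENSMUSG00000023034, chr15:101254269-101274795, plus strand) was at 31.0, 25.9 and 25.4 CPM in untreated and 148, 187 and 249 CPM in peritumoral hepatocytes. In livers it went from 27.1 and 35.6 CPM in controls to 90.7 and 86.0 CPM at 24 h and 68.1 and 125 CPM at 48 h. Untreated hepatocytes and control livers overlapped in level, and every treated library was above them. The log2 fold change was 2.82 ± 0.24 (adjusted p = 0.0032) beside tumours, 1.38 ± 0.29 (adjusted p = 0.0101) at 24 h and 1.54 ± 0.29 (adjusted p = 0.00502) at 48 h. The 24 h call was lost without TAA 24 h replicate 1 or control replicate 1.

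Ier3 (ENSMUSG00000003541, chr17:35821684-35822923, plus strand), an inhibitor of apoptosis induced by stress and by NF-κB, had the largest increase beside tumours and, after Fosl1, the largest in the livers. It was at 12.3, 12.8 and 3.28 CPM in untreated and 57.7, 82.1 and 62.3 CPM in peritumoral hepatocytes. Control livers had 3.42 and 3.69 CPM, 24 h livers 50.5 and 39.5 CPM, and 48 h livers 31.6 and 44.5 CPM. Untreated replicate 3 was at the level of the control livers. The log2 fold changes were 2.84 ± 0.48 (adjusted p = 0.00921), 3.54 ± 0.24 (adjusted p = 0.000385) and 3.34 ± 0.24 (adjusted p = 0.000234), which kept their calls in all alternatives.

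**Figure D3:**
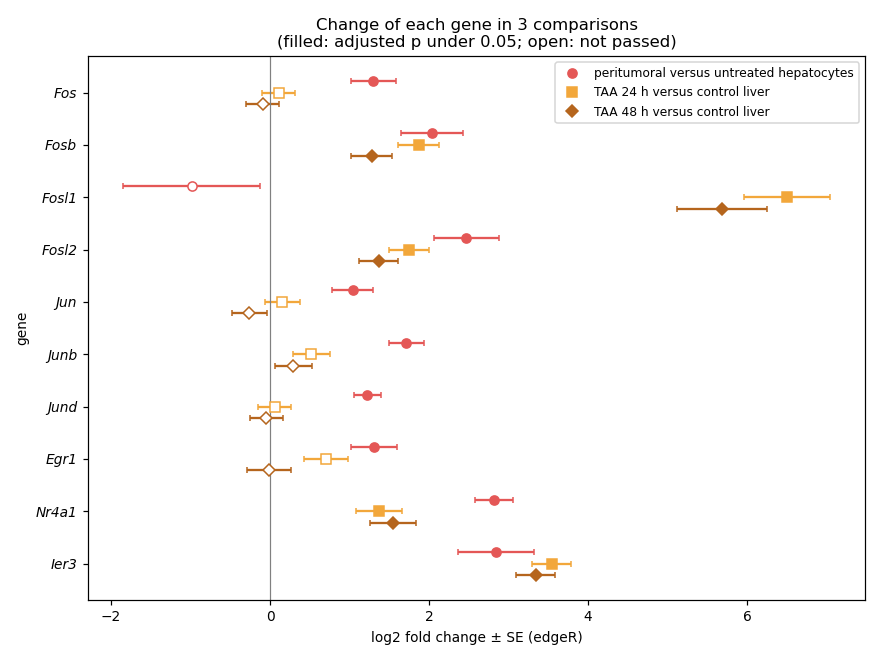
Change of each gene (rows) in 3 comparisons: x axis, log2 fold change from edgeR, with bars of 1 SE; circles are peritumoral against untreated hepatocytes, squares 24 h and diamonds 48 h after TAA against control livers; filled symbols passed at an adjusted p under 0.05 and open ones did not. Fos, Jun, Junb, Jund and Egr1 are filled in hepatocytes only, which library totals alone would change in the livers, and Fosl1 reaches 6.50 at 24 h.

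Whether the 2 responses differed was tested directly, as the peritumoral effect minus the TAA effect in 1 fit of all 12 libraries (14615 genes), which contrasts mouse stocks and injuries together. Against 24 h, Junb (1.08 ± 0.34, adjusted p = 0.049), Jund (1.06 ± 0.28, adjusted p = 0.0279) and Nr4a1 (1.33 ± 0.40, adjusted p = 0.0411) had the larger log2 increase beside tumours, and Fosl1 the larger one after TAA (−7.65 ± 1.43, adjusted p = 0.00982). Of all genes 8.85% passed upwards and 11.9% downwards. Against 48 h, Fos (1.31 ± 0.38, adjusted p = 0.0466), Jun (1.23 ± 0.35, adjusted p = 0.0457), Junb (1.35 ± 0.34, adjusted p = 0.0326) and Jund (1.20 ± 0.28, adjusted p = 0.0259) passed upwards and Fosl1 (−6.80 ± 1.44, adjusted p = 0.0199) downwards, where 6.4% and 8.16% of all genes did. For Fosb, Fosl2, Egr1 and Ier3 neither difference passed, and for Fosb against 24 h it was 0.04, with a 95% interval from −1.13 to 1.21. Only the Fosl1 difference against 24 h held in all alternatives: with library totals alone 0 genes of the set passed upwards in either test. Without single libraries 0 to 3 passed upwards against 24 h and 0 to 4 against 48 h.

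Between 24 h and 48 h after TAA, 0 of the 10 passed in edgeR, 3 had an unadjusted p under 0.05, and DESeq2 called 0, where 7.55% of all genes passed (5.02% upwards, 2.53% downwards). Egr1, Fosb, Fosl1 and Jun lay wholly lower at 48 h, as 33.3% of all genes did, and none lay wholly higher, as 29.2% did. The log2 differences of the 3 with a small unadjusted p were −0.81 ± 0.30 for Fosl1 (adjusted p = 0.139), −0.72 ± 0.28 for Egr1 (adjusted p = 0.152) and −0.59 ± 0.25 for Fosb (adjusted p = 0.181). The 48 h replicates were themselves apart: replicate 1 was lower than replicate 2 for all genes of the set except Fosl1.

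The make-up of the FOS family shifted from Fos towards Fosb. Per kb of exon, Fosb gave 4.16% to 4.99% of the summed FOS transcripts in control livers, 12.3% to 14.9% at 24 h and 9.87% to 11.4% at 48 h. In hepatocytes its share was 8.42% to 9.997% untreated and 11.0% to 19.2% beside tumours. The ranges did not overlap within either pair. Fos held 80.0% to 95.5% of the family in every library, and Fosl1, in spite of its large fold change, 0.933% to 1.06% at 24 h. The family sum was 174 to 294 CPM per kb in untreated hepatocytes, 587 to 691 beside tumours, 359 to 462 in control livers, 522 to 558 at 24 h and 369 to 513 at 48 h.

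In the JUN family, Junb took 24.0% to 26.5% in untreated and 30.3% to 37.4% in peritumoral hepatocytes, while Jun went from 50.05% to 52.2% down to 38.0% to 48.8%. In the livers Junb was at 21.0% to 22.6% in controls, 26.4% to 27.0% at 24 h and 27.3% to 28.8% at 48 h. So the share of Junb was higher in every treated library than in its controls, also at 48 h, where its own level did not pass the test. Shares are free of the scaling between libraries.

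**Figure D4:**
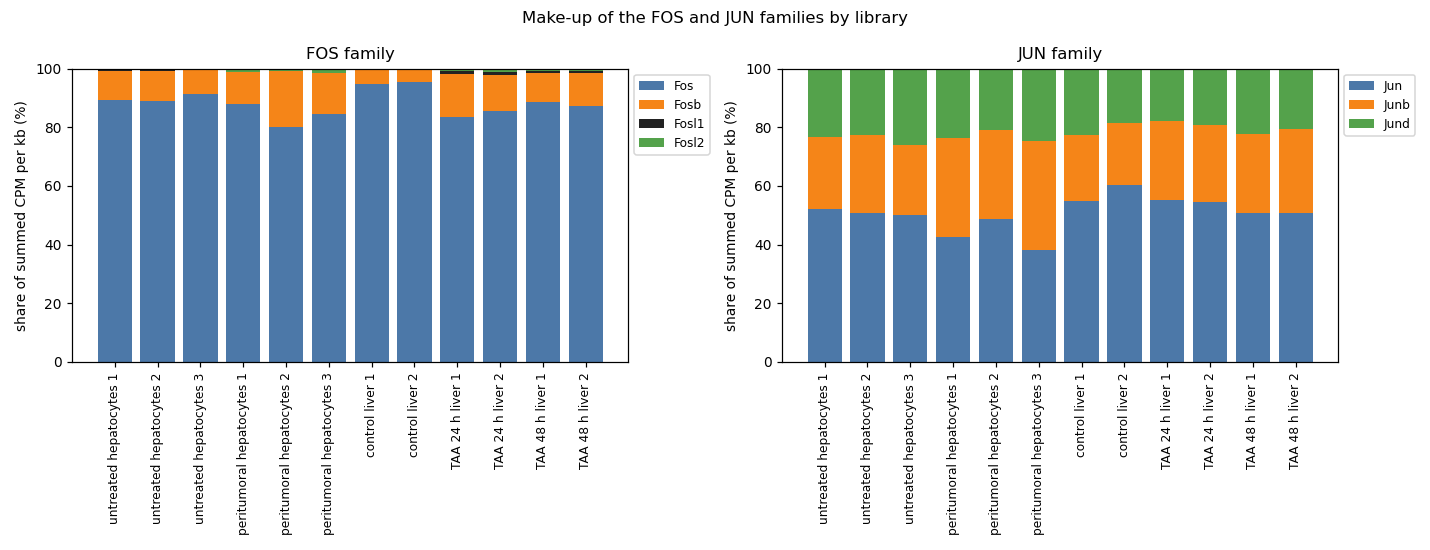
Share of each gene in the summed FOS family (left) and JUN family (right), in % of CPM per kb of exon (y axis, 0 to 100) for each library (bars). Fos makes up 80.0% or more of the FOS bars, the Fosb part is wider in TAA livers than in controls, and the Junb part is widest in peritumoral hepatocytes.

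Partners that dimerise with AP-1 subunits were followed as a list of 12 related leucine zipper genes. Beside tumours 6 of 11 tested rose and 0 fell, at 24 h 4 of 12 rose and 2 fell, and at 48 h 7 rose and 1 fell, with median log2 fold changes of 0.85, 0.80 and 0.77. Over all genes 18.7%, 21.1% and 25.1% rose and 9.85%, 20.7% and 24% fell, which is the background for this list and those that follow. DESeq2 called 6, 3 and 4 of the partner genes higher. Jdp2, a repressor that pairs with JUN, rose from 1.56 ± 0.67 to 17.3 ± 10.4 CPM (SD, n = 3) beside tumours and from 0.457 ± 0.060 to 3.50 ± 0.52 CPM (n = 2) at 48 h. Maf rose to 83.5 ± 22.7 CPM from 18.2 ± 1.91 CPM beside tumours, and Batf, an AP-1 inhibitor of immune cells, from 0.217 ± 0.106 to 1.58 ± 0.52 CPM. The untreated value of Batf is near the floor of 3 counts per library. The small MAF proteins parted at 24 h: Maff rose from 6.88 ± 1.26 to 38.7 ± 1.39 CPM and Mafk from 12.4 ± 2.12 to 42.4 ± 0.41 CPM, whereas Mafg fell from 73 ± 4.81 to 37.7 ± 0.40 CPM. At 48 h Mafg was still at 37.9 ± 1.47 CPM and Mafk at 28.2 ± 3.14 CPM.

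Among the relatives of Egr1 and Nr4a1, 4 of 6 tested genes (Egr2, Egr3, Nr4a2 and Nr4a3) rose beside tumours and at 48 h. At 24 h these 4 and the corepressor gene Nab2 rose, and 0 fell in any of the 3 comparisons. The median log2 fold changes were 2.46, 2.69 and 3.05. Egr2 went from 6.14 ± 2.40 to 35.2 ± 14 CPM beside tumours (n = 3), and in livers from 7.04 ± 1.75 to 26.2 ± 3.07 CPM at 24 h and 40.3 ± 13.9 CPM at 48 h (n = 2). Nr4a3 rose from 0.236 ± 0.139 to 8.17 ± 2.44 CPM beside tumours and from 0.253 ± 0.065 to 14.7 ± 1.25 CPM at 24 h. Nr4a2 went from 0.251 ± 0.209 CPM in controls to 6.05 CPM at 24 h and 3.87 ± 1.40 CPM at 48 h, and Egr3 from 0.241 ± 0.037 to 3.20 ± 1.58 CPM beside tumours. The starting values given for Nr4a3, Nr4a2 and Egr3 lie near or under the floor of 3 counts per library. Unlike Egr1 itself, Egr2 passed at both times after TAA.

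A list of 35 other immediate early genes moved mostly upwards. Beside tumours 22 rose and 0 fell, at 24 h 19 rose and 4 fell, and at 48 h 16 rose and 5 fell, with medians of 1.49, 0.81 and 0.70. Ier5 rose from 10.1 ± 1.47 to 44.4 ± 11.1 CPM beside tumours and from 10.8 ± 1.15 to 63.3 ± 4.22 CPM at 24 h. Ctgf, which encodes a matricellular protein, rose from 8.50 ± 2.50 to 51.0 ± 6.28 CPM beside tumours and from 3.16 ± 0.80 CPM to 30.7 ± 8.33 CPM at 24 h and 75.7 ± 1.05 CPM at 48 h. Gadd45b rose to 75.8 ± 21.0 CPM from 18.7 ± 1.31 CPM beside tumours. In livers Nfkbia, the NF-κB inhibitor, rose from 36.0 ± 6.45 to 216 ± 3.95 CPM at 24 h, and at 48 h Dusp2, a MAP kinase phosphatase, rose from 0.616 ± 0.447 to 16.0 ± 0.45 CPM and Klf6 from 20.2 ± 6.51 to 158.5 ± 11.6 CPM.

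Heat shock genes, which also respond to dissociation, moved both ways. Of 14, 2 rose and 2 fell beside tumours, 4 rose and 0 fell at 24 h, and 1 rose and 2 fell at 48 h, with medians of −0.64, 0.32 and −0.22. Over all genes 28.5%, 41.7% and 49% passed in these comparisons, shares near or above those of the list. Beside tumours 7 of the 14 had an unadjusted p under 0.05 in edgeR, and DESeq2 called 2 higher and 5 lower. Hspa1a, the inducible HSP70, rose from 5.80 ± 2.62 to 32.4 ± 18.8 CPM beside tumours and from 5.65 ± 3.44 to 29.1 ± 4.86 CPM at 24 h, values that may be shared with its near-identical copy Hspa1b. Dnajb1, its co-chaperone, rose at 24 h from 42.8 ± 21.3 to 134 ± 7.69 CPM. The mitochondrial chaperone Hspd1 fell from 521 ± 118 to 247 ± 61.2 CPM beside tumours and from 588 ± 2.38 to 420.0 ± 42.3 CPM at 48 h. Its partner Hspe1 fell from 105 ± 27.3 to 51.0 ± 16.0 CPM beside tumours and from 81.9 ± 14.8 to 60.7 ± 4.89 CPM at 48 h. Cryab rose in all 3 comparisons, to 15.8 ± 11.5 CPM beside tumours and to 12.6 ± 6.31 and 27.4 ± 10.2 CPM after TAA.

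Genes of the signals that lead to AP-1 were followed in a pair of lists. Of 14 MAP kinases and their kinases 0 rose and 2 fell beside tumours: Map2k2 fell from 161 ± 19.5 to 86.5 ± 16.0 CPM and Map2k3 from 79.3 ± 10.4 to 53.5 ± 9.95 CPM. DESeq2 called 1 higher and 1 lower there. At 24 h 0 passed in edgeR, 1 had an unadjusted p under 0.05 and DESeq2 called 0. At 48 h Mapk3 rose from 35.7 ± 6.41 to 61.5 ± 0.10 CPM, and Mapk14 and Map2k7 fell by 0.35 and 0.41 on the log2 scale, calls that DESeq2 did not make (0 lower). Over all genes 28.5%, 41.7% and 49% passed in these 3 comparisons. Of 7 genes for serum response factor and its cofactors, 1 rose beside tumours and 0 fell, 1 rose and 2 fell at 24 h, and 2 rose and 1 fell at 48 h, and after TAA these shares are near those of all genes. Elk3 rose each time, from 6.18 ± 1.23 to 35.3 ± 11.1 CPM beside tumours and from 5.97 ± 1.95 CPM to 14.3 ± 0.30 and 24.3 ± 1.90 CPM after TAA, and Elk4 fell by 0.40 and 0.51 on the log2 scale. Mkl2 fell by 0.74 at 24 h and Mkl1 rose by 0.99 at 48 h.

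Genes long described as AP-1 targets rose in most cases after TAA. Of 16 tested, 14 rose at 24 h and 15 at 48 h, with medians of 4.42 and 4.65, and 8 rose beside tumours, with a median of 2.0. None of the 16 fell in those 3 comparisons in edgeR; beside tumours 12 had an unadjusted p under 0.05 and DESeq2 called 1 lower. Several of these genes are expressed by macrophages and matrix cells, whose summed markers rose in the same libraries. The part of those cells in the values of the target genes was not tested. Plau, the urokinase gene, rose from 0.512 ± 0.301 to 17.8 ± 0.52 CPM at 24 h and 32.2 ± 7.76 CPM at 48 h. Timp1, an inhibitor of matrix metalloproteinases, rose from 0.102 ± 0.003 to 10.3 ± 2.64 CPM at 24 h and from 0.443 ± 0.327 to 24.0 ± 17.1 CPM beside tumours. Its control liver value is under the floor of 3 counts, so that small SD is no measure of the spread between livers. The chemokine gene Ccl2 rose from 1.28 ± 0.68 to 28.7 ± 2.74 and 33.2 ± 3.41 CPM after TAA and from 5.40 ± 1.61 to 23.0 ± 3.03 CPM beside tumours. Cd44 reached 56.6 ± 4.67 CPM at 48 h from 3.10 ± 0.28 CPM, and Hmox1 128 ± 27.5 CPM beside tumours from 19.0 ± 3.93 CPM.

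Across the 12 libraries the genes whose log2 levels were most like those of Fos were Jun, Rnf145 and Tiparp, with Pearson's r of 0.95, 0.94 and 0.94 among 9928 genes. Nearest to Junb were Jund (0.97), Rian (0.95) and Col6a5 (0.95). Fosl2 was nearest to Gja1 (0.97), Hbegf (0.97) and Nfkbiz (0.96), and Ier3 to H3f3b (0.98), Fam102b (0.98) and Nfkbiz (0.98). Within the set, Fosl1 stood apart, with r from −0.12 to 0.54 with the other 9. These values are descriptions: the libraries of a group share their condition, and the hepatocyte and liver libraries their mouse stock.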

How the data were processed

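RNA of 12 libraries was prepared with a stranded TruSeq mRNA kit, per the labels' protocols. The values deposited by the authors are raw counts (41128 genes), the input of the main tests, and RPM (17311 genes), each a count scaled to its library total: 100% of the RPM values gave whole reads within 0.01 read. The tools STAR and DESeq2 and the builds mm10 and GRCm38 are named, per the submitters' processing notes. The sources used here give neither the annotation nor the strand setting. IDs were matched to GENCODE M21 on GRCm38 for 40254 genes (97.9%), which gave exon lengths and overlaps. Groups and replicate numbers come from the sample titles, and no library was a duplicate.

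The members and all gene lists were chosen with earlier results of these data known. Named from each list were up to 3 genes per comparison with the smallest p among those that passed without overlap between groups, and for Fos, Junb, Fosl2 and Ier3 the 3 most similar genes by r of log2(CPM + 0.5) among genes that average 5 CPM or more. Further list genes are named where a count is 5 or fewer, after their values were seen. The values of 1 partner gene are not reported here.

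Tests on counts used edgeR 4.0.16 under R 4.3.3: TMM factors, filterByExpr (minimum count 10), and a two-sided quasi-likelihood F test with p-values adjusted by Benjamini-Hochberg and a threshold of 0.05, in 1 fit for the 6 hepatocyte libraries and 1 for the 6 livers. SE is the log2 fold change over the root of F, and 95% intervals use the fit's degrees of freedom. Scripts were tested on simulated counts. Biological coefficients of variation were 0.358 (hepatocytes) and 0.188 (livers). Alternatives were RLE or no factors, no filter or a minimum count of 50, DESeq2 1.42.0, limma 3.58.1 on log2(RPM + 0.5) or log2(RPM + 0.1), all 12 libraries in 1 fit, a replicate block, each library left out, and, chosen after seeing the data, edgeR on reads recovered from RPM, which called 3834, 5634, 6620 and 1019 genes in the 4 comparisons, as on the counts. In each library 3 counts, the floor, are 0.162 to 0.311 RPM.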

Additional observations from a re-analysis of the deposited data

Results flagged for a closer look

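The change beside tumours differed from that after TAA in 9 tests of the difference itself (edgeR, all 12 libraries, SE and adjusted p). Against 24 h, the difference in log2 fold change was −7.65 ± 1.43 for Fosl1 (adjusted p = 0.00982), 1.08 ± 0.34 for Junb (adjusted p = 0.049), 1.06 ± 0.28 for Jund (adjusted p = 0.0279) and 1.33 ± 0.40 for Nr4a1 (adjusted p = 0.0411). Against 48 h it was 1.31 ± 0.38 for Fos (adjusted p = 0.0466), −6.80 ± 1.44 for Fosl1 (adjusted p = 0.0199), 1.23 ± 0.35 for Jun (adjusted p = 0.0457), 1.35 ± 0.34 for Junb (adjusted p = 0.0326) and 1.20 ± 0.28 for Jund (adjusted p = 0.0259). The first is negative because Fosl1 rose after TAA and not beside tumours, and the same 2 control livers enter both tests.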

How the results depend on the processing

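With library totals alone, 10 of the genes rose at 24 h and 9 at 48 h, and 0 passed upwards in either difference between the responses. DESeq2 called 5 and 6 upwards in those differences against 24 h and 48 h. In the fit without a filter on low counts, 2 passed upwards against 48 h, and 1 gene, Egr1, passed as lower at 48 h than at 24 h. Leaving out single libraries gave 5 to 9 genes higher beside tumours, 0 to 3 and 0 to 4 higher and 1 to 2 and 0 to 1 lower in the differences. The causes were not tested.

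Over all genes, calls beside tumours numbered 2516 at a minimum count of 50, 2328 in limma with a pseudocount of 0.5, 5752 with all 12 libraries in 1 fit, and 1096 to 3684 without single libraries. All 12 libraries in 1 fit gave 3134 calls at 24 h and 4283 at 48 h, and single libraries left out gave 2831 to 4803 at 24 h. Between 24 h and 48 h calls numbered 1566 with library totals, 1966 without a filter, 612 and 0 in limma with pseudocounts of 0.5 and 0.1, 98 with all 12 libraries, and 10 to 1334 without single libraries. For lists, DESeq2 called 5 heat shock genes lower beside tumours (edgeR 2) and 4 partner genes higher at 48 h (edgeR 7).

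Values near 0 changed sign. At 48 h against controls, library totals gave 0.61 for Fos, 0.44 for Jun, 0.66 for Jund and 0.69 for Egr1, and limma with either pseudocount 0.61, 0.41, 0.65 and 0.66. Jund was 0.0078 at a minimum count of 50 and 0.031 with all 12 libraries, and Egr1 0.028 with RLE factors, 0.0095 without a filter, 0.044 at a minimum count of 50, 0.022 in DESeq2 and 0.067 with all 12 libraries. For Jund between 24 h and 48 h, library totals gave 0.091 and limma 0.073, and for Fosb the difference between the responses at 24 h was −0.088 with library totals. Without single libraries, the 24 h values ran from −0.088 to 0.30 for Fos and −0.11 to 0.22 for Jund. Those at 48 h ran from −0.34 to 0.12 for Fos, −0.61 to 0.021 for Jun, −0.10 to 0.60 for Junb, −0.33 to 0.19 for Jund and −0.45 to 0.32 for Egr1. Between 24 h and 48 h they ran from −0.45 to 0.0084 for Fos, −0.62 to 0.084 for Junb, −0.39 to 0.13 for Jund, −0.34 to 0.53 for Nr4a1 and −0.47 to 0.019 for Ier3, and for Fosb in the difference at 24 h from −0.33 to 0.33. None of these genes passed in those comparisons in the test reported.

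Same-numbered libraries are tied to each other only by the number in their titles. Their deviations from the group mean correlated at −0.248, 0.186 and 0.126 in hepatocytes and between −0.0516 and 0.0206 in livers. Deviations within a group sum to 0, so with so few libraries a group these values cannot show whether libraries were paired. With the replicate number as a block, 8 of the genes rose beside tumours (Jun was lost), 6 at 24 h (Egr1 was gained) and 5 at 48 h, and 0 and 2 passed upwards in the differences against 24 h and 48 h.

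Precision is limited by 2 or 3 libraries a group, and for Fosl1 by counts of 0 to 35 in libraries without TAA.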
